A study of Mus musculus with 6 samples.

Results

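The genes described here are the 10 listed factors of nonhomologous end joining, the repair pathway that rejoins the 2 ends of a broken chromosome without a template. They were chosen by name, matched to the Ensembl identifiers of the count files through GENCODE M21, and all 10 were found among the 39179 genes listed and among the 15980 genes tested. Whole bone marrow RNA was sequenced from 6 littermate mice, 3 *MxCDX2* mice and 3 control mice. The *MxCDX2* mice (*RsCDX2::Mx1Cre*) carried the human *CDX2* coding sequence at *Rosa26* behind a stop sequence that Cre removes, together with Cre under the interferon-inducible *Mx1* promoter. The control group consisted of a wild-type, an *Mx1Cre* and an *RsCDX2* mouse, so that no control genotype was replicated. Every mouse, controls included, was 3 months old, was injected intraperitoneally 3 times with poly(I:C), an interferon inducer, at 10 mg per kg, and was analysed 6 weeks later. Because the *Mx1* promoter is active wherever interferon acts, Cre is not restricted to blood cells, and the marrow was not sorted.

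In nonhomologous end joining, the ring formed by the Ku proteins slides onto each DNA end and brings in the kinase DNA-PKcs. The nuclease Artemis trims ends that cannot be joined as they are, polymerases of the X family fill gaps, and DNA ligase IV seals the break together with its scaffold proteins XRCC4 and XLF. In marrow the same machinery joins the gene segments of antibodies and T-cell receptors, so that its loss blocks lymphocyte development, and it also protects stem cells.

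The promoters of 3 members are shown because the members at the extremes of the comparison, *Xrcc5* and *Dclre1c*, and the Ku partner *Xrcc6* differed there in base composition. *Xrcc6* and *Dclre1c* were added after their values were seen. Each line gives the 250 bases before the transcription start on the gene's own strand (RefSeq, GRCm38.p6), with CpG dinucleotides in capitals. The RefSeq start of *Xrcc6* lies inside the gene as GENCODE draws it, which begins further upstream at 81987835. The windows lie at chr1:72307171-72307420, chr15:82016119-82016368 and chr2:3423881-3424130, all on the plus strand.
Xrcc5: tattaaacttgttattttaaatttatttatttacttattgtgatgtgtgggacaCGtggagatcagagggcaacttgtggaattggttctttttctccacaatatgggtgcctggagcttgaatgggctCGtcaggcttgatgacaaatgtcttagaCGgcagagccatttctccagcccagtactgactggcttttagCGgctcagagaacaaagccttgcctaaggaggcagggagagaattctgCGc
Xrcc6: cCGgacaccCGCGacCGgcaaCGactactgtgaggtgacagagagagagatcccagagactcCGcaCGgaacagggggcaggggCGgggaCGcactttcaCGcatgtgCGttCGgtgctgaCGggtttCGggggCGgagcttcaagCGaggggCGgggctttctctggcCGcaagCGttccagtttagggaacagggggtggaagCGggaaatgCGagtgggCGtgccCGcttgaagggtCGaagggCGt
Dclre1c: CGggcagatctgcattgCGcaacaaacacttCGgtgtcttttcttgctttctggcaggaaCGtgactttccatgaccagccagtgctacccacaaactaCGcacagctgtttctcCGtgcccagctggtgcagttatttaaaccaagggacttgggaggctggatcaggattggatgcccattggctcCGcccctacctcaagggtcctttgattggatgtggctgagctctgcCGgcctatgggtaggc
The *Xrcc5* window held 5 CpG dinucleotides and 44.8% G and C bases, and the *Xrcc6* window held 25 and 65.2%. The *Dclre1c* window lay between them with 8 CpG dinucleotides and 54.8%. Over 32851 promoter windows of the same length the medians were 6 CpG dinucleotides and 52.4%. A window was listed for 8 of the 10 members, with 2 for *Lig4*, and of these 9 windows that of *Xrcc5* had the fewest CpG dinucleotides and the lowest share of G and C. The core letters of CDX binding sites, TTTATG on either strand (CATAAA on the other), were found in none of the 9 windows, against 10.8% of all windows. The letters of this one core say nothing about binding elsewhere or by other sequences.

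Between 38646101 and 49899650 reads per mouse were counted on genes. Mouse *Cdx2*, on which reads of the human coding sequence would be counted if at all, had between 152 and 183 reads in the *MxCDX2* mice and 4, 0 and 0 in the *RsCDX2*, *Mx1Cre* and wild-type controls, which are always listed in this order. The wild-type control stood apart from the other controls: the summed normalized count of 5 megakaryocyte markers was 145858 there, against 16315 in the *RsCDX2* and 14567 in the *Mx1Cre* control. Where leaving it out changed the call of a member or of a listed partner gene, both results are given. For a normalized count, each library was brought to a common size (the average over mice after TMM correction), and a gene was called when its adjusted p was below 0.05 in edgeR's quasi-likelihood test over all genes tested. Nothing in the labels tells of batches. Separate animals were sampled, so the p-values rest on the spread between mice, which among the controls includes any difference between their genotypes.

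**Figure D1:**
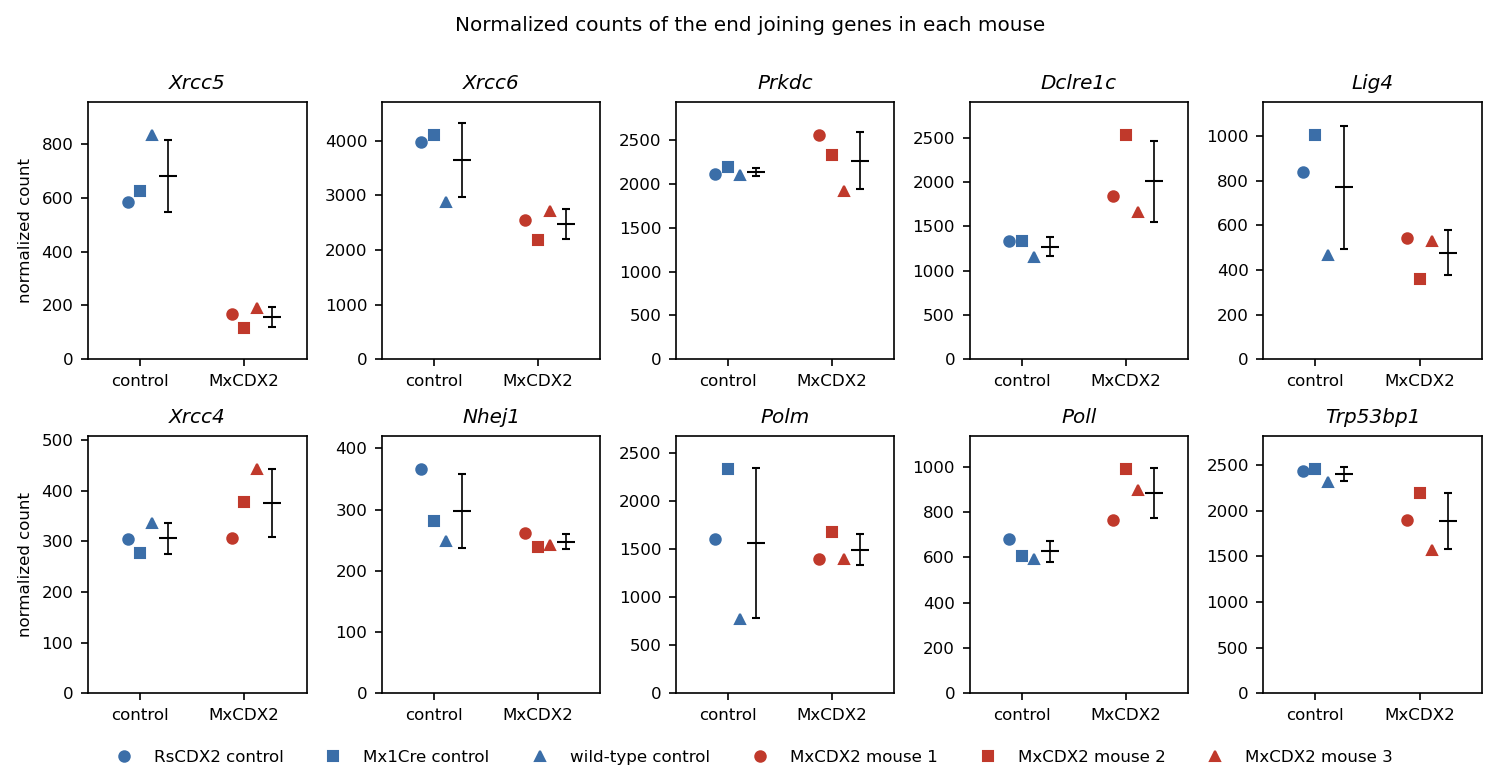
Normalized counts (vertical axis, from 0) of the 10 end joining genes in each of 3 control mice (blue) and 3 *MxCDX2* mice (red), with the group mean and SD in black. In *Xrcc5* the *MxCDX2* mice lie at or below 189 and the control mice at or above 587, whereas in *Polm* the wild-type control lies below all 3 *MxCDX2* mice.

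One member fell and another rose. *Xrcc5*, which encodes the Ku80 subunit, fell to 23.1% of its control level, and *Dclre1c*, which encodes Artemis, rose to 158%, a call that was lost when any 1 mouse was left out. The other 8 members, with log2 fold changes between -0.69 and 0.49, were not called. Thus 1 of 10 members was called lower, against 11.8% of all genes tested, and 1 of 10 was called higher, against 9.91%. When an absolute log2 fold change above 1 was required as well, *Xrcc5* alone passed on the lower side, against 9.03% of all genes, and no member passed on the higher side, against 4.59%. DESeq2 and limma voom also found no member on that side, where the highest log2 fold change was 0.66. The median log2 fold change of the members was -0.17, with 6 members lower and 4 higher, and that of all genes was 0.00. The counts for the members are thus close to the background of the whole comparison.

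**Figure D2:**
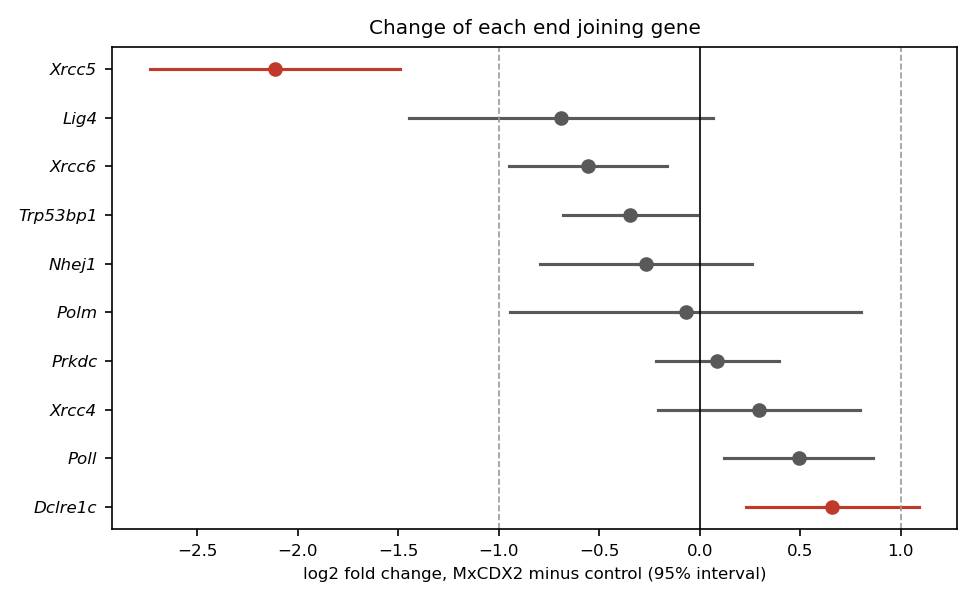
Log2 fold change (horizontal axis, *MxCDX2* minus control) of each end joining gene with its 95% interval, in red where the adjusted p was below 0.05. Dashed lines mark a log2 fold change of -1 and 1. The interval of *Xrcc5* lies wholly below -1, and that of *Dclre1c* lies above 0 and reaches 1.09.

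The Ku subunits recognize the break. *Xrcc5* (ENSMUSG00000026187, plus strand of chromosome 1 from 72307421 to 72394952, GRCm38) had 587, 626 and 833 normalized counts in the *RsCDX2*, *Mx1Cre* and wild-type controls. In *MxCDX2* mice 1, 2 and 3 it had 167, 117 and 189 normalized counts. The groups were far apart, and the highest control was the wild-type mouse. The mean fell from 682 ± 133 (SD, n = 3) to 158 ± 37.1 (SD, n = 3), a log2 fold change of -2.11 (95% interval -2.73 to -1.49, adjusted p = 0.00345 in edgeR's test). This is 4.32-fold, and it was called in each of the 6 fits that left out 1 mouse, with log2 fold changes between -2.26 and -1.93. Before normalization the reads were 459, 630 and 914 in the controls and 158, 119 and 217 in the *MxCDX2* mice, and they were separated in the same way.

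*Xrcc6* (ENSMUSG00000022471, plus strand of chromosome 15 from 81987835 to 82040085) encodes Ku70, without which Ku80 is not stable. It had 3974, 4102 and 2878 normalized counts in the controls, in the same order, and 2554, 2179 and 2713 in *MxCDX2* mice 1, 2 and 3. All 3 *MxCDX2* mice lay below all controls, though the wild-type control came close to the highest of them. The log2 fold change was -0.56 (95% interval -0.95 to -0.16), with an adjusted p of 0.0549 in edgeR's test, and it was not called. Without the wild-type control it was -0.69, with an adjusted p of 0.0095, and the gene was called.

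Ku80 and Ku70 act as a pair with 1 copy of each, so the ratio of their transcripts was taken within each mouse, where normalization between libraries plays no part. Per kb of exon, *Xrcc5* reads were 0.259, 0.267 and 0.507 of *Xrcc6* reads in the *RsCDX2*, *Mx1Cre* and wild-type controls. In *MxCDX2* mice 1, 2 and 3 the ratios were 0.115, 0.0941 and 0.122. *Xrcc5* was thus the scarcer transcript in all 6 mice, and scarcer still in every *MxCDX2* mouse. On the log2 scale the mean ratio was -1.61 ± 0.55 (SD, n = 3) in controls and -3.19 ± 0.20 (SD, n = 3) in *MxCDX2* mice, a difference of -1.58 or 2.98-fold. The exact permutation test gave a two-sided p of 0.10, the smallest that 3 mice against 3 allow. The difference was -1.26 without the wild-type control. The size of the ratio depends on the length taken for *Xrcc6*, of which GENCODE lists longer transcripts: with the longest transcript of each gene in place of all exons, the mean ratio was 0.241 in controls and 0.0809 in *MxCDX2* mice, with the same difference between groups.

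**Figure D3:**
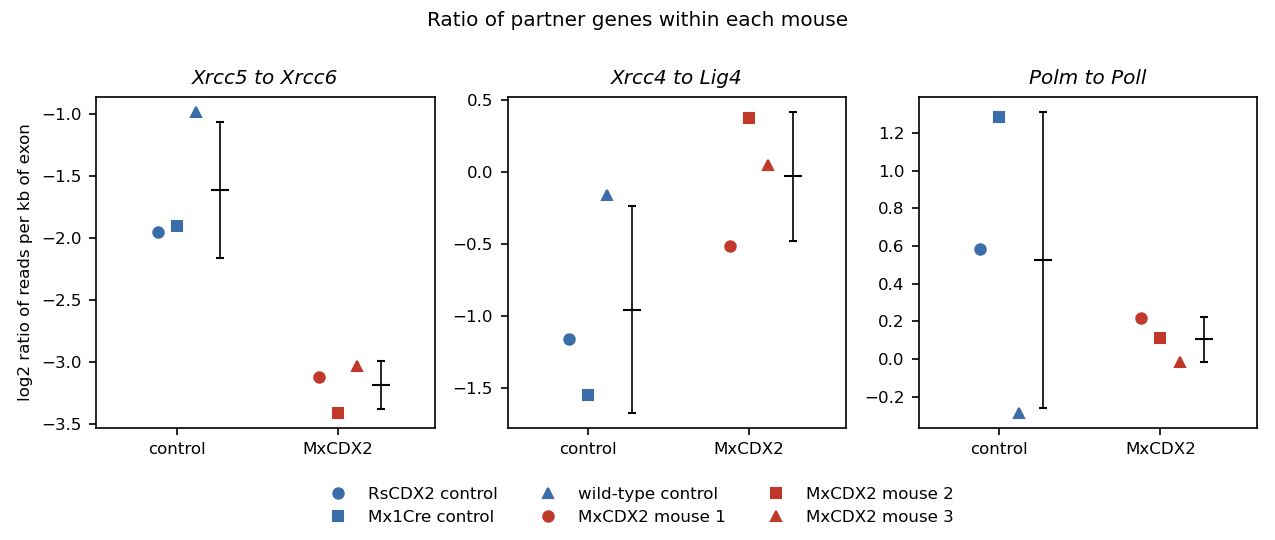
Log2 ratio of reads per kb of exon (vertical axis) for 3 pairs of partner genes within each control mouse (blue) and *MxCDX2* mouse (red), with the group mean and SD in black. The *Xrcc5* to *Xrcc6* ratio separates the groups, and the wild-type control (blue triangle) is the highest control in the first 2 pairs and the lowest in the third.

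DNA-PKcs and the nuclease that it activates act next. *Prkdc* (chromosome 16, 15637866 to 15842235), which encodes the catalytic subunit DNA-PKcs, had 2114, 2191 and 2104 normalized counts in the controls and 2560, 2330 and 1919 in the *MxCDX2* mice. The *MxCDX2* mice spread around the narrow range of the controls. The log2 fold change was 0.09 (adjusted p = 0.67 in edgeR's test) and its 95% interval ran from -0.22 to 0.39, so that a rise of up to 1.31-fold lay inside it.

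*Dclre1c* (chromosome 2, 3424131 to 3464130) had 1337, 1330 and 1151 normalized counts in the *RsCDX2*, *Mx1Cre* and wild-type controls. In *MxCDX2* mice 1, 2 and 3 it had 1840, 2529 and 1660. The groups did not overlap, and *MxCDX2* mouse 2 was the highest. The mean rose from 1272 ± 105 (SD, n = 3) to 2010 ± 458 (SD, n = 3), a log2 fold change of 0.66 (95% interval 0.23 to 1.09, adjusted p = 0.0432 in edgeR's test). This call was lost whichever mouse was left out, with adjusted p-values between 0.059 and 0.0914, and without *MxCDX2* mouse 2 the log2 fold change was 0.47. Its exons share 357 bases with those of *Suv39h2*, on the opposite strand, which had a log2 fold change of -0.09 (adjusted p = 0.787 in the same test).

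The ligation complex comprises *Lig4*, which encodes the ligase, *Xrcc4*, whose product holds the ligase in place, and *Nhej1*, whose product XLF bridges the ends. None of the 3 was called. *Lig4* (chromosome 8, 9969049 to 9977686) had 840, 1003 and 466 normalized counts in the controls and 542, 361 and 529 in the *MxCDX2* mice. The *RsCDX2* and *Mx1Cre* controls were above every *MxCDX2* mouse, and the wild-type control was among them. The log2 fold change was -0.69 (95% interval -1.45 to 0.07, adjusted p = 0.171 in edgeR's test). Without the wild-type control it was -0.93 with an adjusted p of 0.0285, and the gene was then called.

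*Xrcc4* (chromosome 13, 89774027 to 90089608), with 304, 277 and 337 normalized counts in the controls and 307, 378 and 442 in the *MxCDX2* mice, overlapped between groups. Its log2 fold change was 0.30 (95% interval -0.21 to 0.80, adjusted p = 0.366 in edgeR's test). *Nhej1* (chromosome 1, 74967139 to 75125200), which lies on the same chromosome as *Xrcc5*, had 365, 281 and 248 normalized counts in the controls and 262, 239 and 242 in the *MxCDX2* mice. Its log2 fold change was -0.27 (95% interval -0.79 to 0.26, adjusted p = 0.435). A level of *Xrcc4* up to 1.74-fold higher, and of *Nhej1* down to 0.577 of that in controls, lay inside these intervals.

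Within each mouse, *Xrcc4* reads per kb of exon were 0.448, 0.342 and 0.894 of *Lig4* reads in the controls and 0.700, 1.30 and 1.03 in the *MxCDX2* mice. The log2 ratio was 0.92 higher in *MxCDX2* mice (-0.96 ± 0.72 in controls and -0.03 ± 0.45 in *MxCDX2* mice, SD, n = 3), but the wild-type control lay inside the range of the *MxCDX2* mice (exact permutation test, two-sided p = 0.20). Without that control the difference was 1.32.

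The members also include the gap-filling polymerases of the X family. *Poll* (chromosome 19, 45552275 to 45560531), which encodes polymerase lambda, had 680, 608 and 594 normalized counts in the controls and 765, 988 and 897 in the *MxCDX2* mice. All 3 *MxCDX2* mice were above all controls. The log2 fold change was 0.49 (95% interval 0.12 to 0.86), with an adjusted p of 0.0654 in edgeR's test and 0.0284 with DESeq2. *Polm* (chromosome 11, 5827860 to 5838016), which encodes polymerase mu, had 1602, 2329 and 769 normalized counts in the controls and 1401, 1678 and 1395 in the *MxCDX2* mice. The controls spread widely, and the *MxCDX2* mice lay inside their range. The log2 fold change was -0.07 (95% interval -0.94 to 0.80, adjusted p = 0.914 in edgeR's test). Its sign changed with the setting: it was 0.062 with total counts as the scale, 0.081 with limma voom and 0.33 without the *Mx1Cre* control. The log2 ratio of *Polm* to *Poll* differed by -0.42 between groups (exact permutation test, two-sided p = 0.50).

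*Trp53bp1* (chromosome 2, 121193281 to 121271407) encodes 53BP1, which binds chromatin around a break and shields the ends from resection. It had 2436, 2450 and 2310 normalized counts in the controls and 1895, 2192 and 1570 in the *MxCDX2* mice. Every *MxCDX2* mouse was below every control. The log2 fold change was -0.35 (95% interval -0.68 to -0.01), and it was not called (adjusted p = 0.125 in edgeR's test). Its exons share 2130 bases with those of *Tubgcp4* on the opposite strand, which had a log2 fold change of 0.64 (adjusted p = 0.0767). The libraries kept strand, but the strand setting of the counting is not given in the sources used here, and without it reads of such partners cannot be told apart. *Xrcc6* shares 344 exon bases with *Desi1* (log2 fold change -0.27, adjusted p = 0.401) in the same arrangement. *Xrcc4* shares 112 exon bases with *Tmem167*, also on the opposite strand, which was called higher (log2 fold change 0.43, adjusted p = 0.0296).

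Seen over all 10 members, the *MxCDX2* mice lay wholly below the controls in 3 (*Xrcc5*, *Xrcc6* and *Trp53bp1*), as in 20.7% of all genes tested, and wholly above them in 2 (*Dclre1c* and *Poll*), as in 21.4%. The unadjusted p was below 0.05 for these same 5 genes, as for 36.1% of all genes tested. Among controls the coefficient of variation ran from 2.24% in *Prkdc* to 49.8% in *Polm*, and the wild-type control was the lowest control in 8 of the 10 members and the highest in the other 2, *Xrcc5* and *Xrcc4*. Among the *MxCDX2* mice it ran from 4.96% in *Nhej1* to 23.6% in *Xrcc5*.

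Transcript levels per kb of exon, scaled to library size, placed the members in the middle of the expressed genes. In controls *Xrcc6* was the most abundant at 17.9 ± 3.31 (SD, n = 3), higher than 80.2% of tested genes, and *Polm* followed at 9.42 ± 4.69 (SD, n = 3), with all 3 values below every *Xrcc6* value. *Poll*, *Xrcc5* and *Nhej1* had 5.94, 5.87 and 5.87 on this scale, and differed by less than their spread. *Trp53bp1*, *Prkdc*, *Lig4* and *Dclre1c* followed between 3.72 and 3.00. *Xrcc4* was the lowest member, above 31.7% of tested genes. In *MxCDX2* mice *Xrcc5*, at 1.36 ± 0.32 (SD, n = 3), took the lowest place, above 31.3% of tested genes in place of 54.6% in controls, and *Xrcc4*, at 1.96 ± 0.35 (SD, n = 3), and *Lig4*, at 2.02 ± 0.43 (SD, n = 3), were next and differed by less than their spread. Lengths were taken from GENCODE M21, and levels between genes depend on them.

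Genes that work beside the members were examined as 7 lists. Their calls stand beside 11.8% of all genes tested called lower and 9.91% called higher. Of 9 genes of break sensing none was called by edgeR (3 had an unadjusted p below 0.05, against 36.1% of all genes tested, and DESeq2 and limma voom called none), with a median log2 fold change of 0.07, and *H2afx* was called, lower, when the wild-type control was left out. *Atm*, which encodes the kinase at the head of the break response, averaged 1915 normalized counts in controls and 2160 in *MxCDX2* mice (adjusted p = 0.238 in edgeR's test) and lay above every control in every *MxCDX2* mouse. It is named here after its values were seen. In 3 of the 9 genes (*Atm*, *Mre11a* and *Usp28*) the *MxCDX2* mice lay wholly above the controls, as in 21.4% of all genes tested. In 1, *Rnf8*, they lay wholly below, as in 20.7%. *Mre11a* and *Usp28* had adjusted p-values of 0.0684 and 0.0957 in edgeR's test. Of 11 accessory and end processing factors 1 was called: *Wrn*, which encodes a helicase with exonuclease activity that Ku stimulates. It had 4798, 4569 and 3974 normalized counts in the controls and 3022, 3464 and 2830 in the *MxCDX2* mice, a log2 fold change of -0.52 (adjusted p = 0.0269 in edgeR's test). *Wrn* was not called when the *RsCDX2* control, the *Mx1Cre* control, *MxCDX2* mouse 1 or *MxCDX2* mouse 3 was left out. DESeq2 called 3 genes of this list (*Cyren*, *Wrn* and *Setmar*). *Dntt*, also in this list and named after its values were seen, encodes the polymerase that adds bases at V(D)J junctions. It ranged from 1947 to 2853 normalized counts in the controls and from 404 to 2874 in the *MxCDX2* mice (adjusted p = 0.446), and was called when *MxCDX2* mouse 3, its highest, was left out.

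Downstream of 53BP1, 10 of 11 listed effectors were matched and tested, and none was called by edgeR. An unadjusted p below 0.05 was found in 4, against 36.1% of all genes tested. DESeq2 called 1, limma voom none and, without the wild-type control, edgeR called 4: *Paxip1*, which was lower, and *Mad2l2*, *Nudt16l1* and *Ten1*, which were higher. The median log2 fold change was 0.32, and in 5 of the 10 the *MxCDX2* mice lay wholly above the controls, as in 21.4% of all genes. In 1, *Rif1*, they lay wholly below, as in 20.7% (log2 fold change -0.30, adjusted p = 0.128 in edgeR's test). The 5 higher genes included all members of the CST complex, which fills in resected ends and telomeres and was singled out after its values were seen. *Ctc1* had 2732, 2548 and 1991 normalized counts in the controls and 3032, 3126 and 2920 in the *MxCDX2* mice. *Stn1* had 418, 473 and 388, and 524, 616 and 613. *Ten1* had 768, 706 and 880, and 1088, 949 and 1186. None passed edgeR's test, where the log2 fold changes were 0.32, 0.46 and 0.45 and the adjusted p-values 0.143, 0.101 and 0.0797. *Ten1* was called with DESeq2 and without the wild-type control, and *Ctc1* and *Ten1* were called with total counts as the scale.

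The V(D)J recombinase makes the breaks that end joining seals in lymphocyte precursors. None of its 3 listed genes was called by edgeR, DESeq2 or limma voom. None had an unadjusted p below 0.05, against 36.1% of all genes tested. Without the wild-type control *Rag2* was called. *Rag1* had 5629, 10830 and 1009 normalized counts in the controls and 3681, 735 and 2338 in the *MxCDX2* mice. *Rag2* had 434, 579 and 104, and 208, 59.8 and 154. In both genes the wild-type control lay among the *MxCDX2* mice. The third gene, *Hmgb1*, which encodes a DNA-bending cofactor, had a log2 fold change of -0.16 (adjusted p = 0.415 in edgeR's test). *Rag1*, *Rag2* and *Hmgb1* are all the genes of the list.

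In other routes of break repair 1 gene was called. Over all genes tested, 11.8% were called lower, 9.91% were called higher and 36.1% had an unadjusted p below 0.05. Of 9 genes of alternative end joining none was called by edgeR (1 had an unadjusted p below 0.05, and DESeq2 and limma voom called none), with a median log2 fold change of -0.08. With the wild-type control left out, edgeR called 2, *Polq* and *Lig1*, both lower. Of 8 telomere factors, a group included because Ku also sits at telomeres, none was called by edgeR (1 had an unadjusted p below 0.05, and DESeq2 and limma voom called none), and *Pot1a* was called without the wild-type control. Of 12 genes of homologous recombination, 1 was called. *Brca2*, which encodes a core factor of that pathway, had 2594, 2062 and 2002 normalized counts in the controls and 1175, 1202 and 1206 in the *MxCDX2* mice, a log2 fold change of -0.89 (adjusted p = 0.00591 in edgeR's test). It was called whichever mouse was left out.

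**Figure D4:**
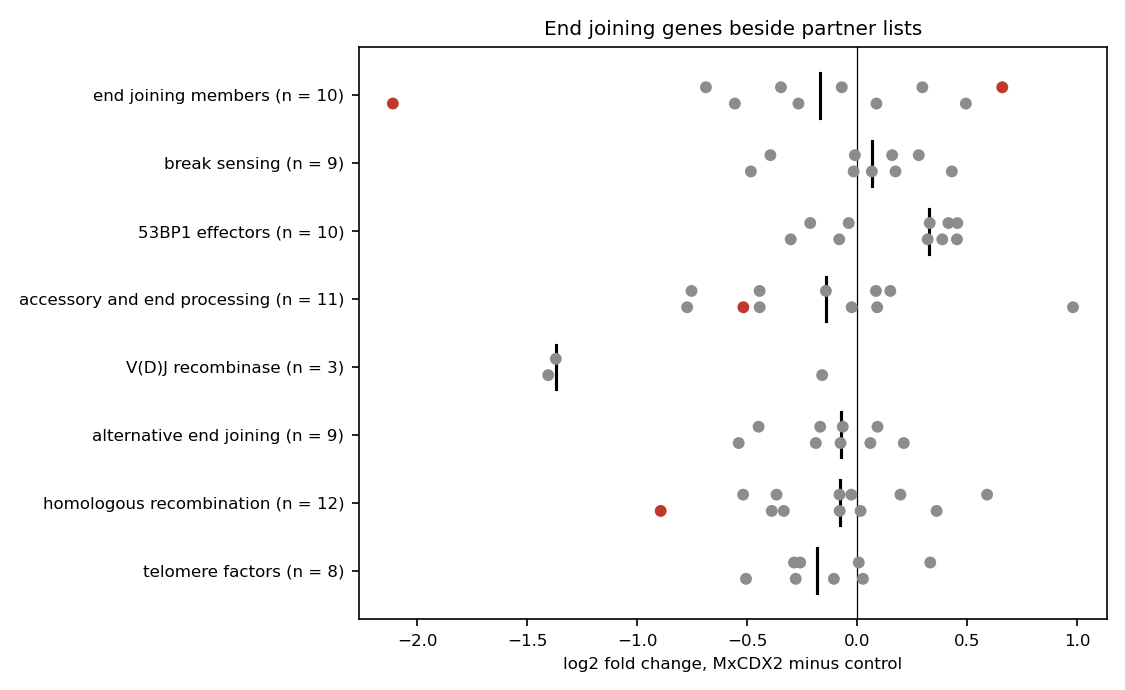
Log2 fold change (horizontal axis, *MxCDX2* minus control) of each gene in the end joining group and in 7 partner lists, in red where the adjusted p was below 0.05, with the median of each list as a black bar. *Xrcc5*, at -2.11, is the lowest of all points shown, and the medians of all lists but the V(D)J recombinase (-1.37) lie between -0.18 and 0.32.

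Genes around *Xrcc5* were examined because it alone passed both thresholds. Of 6 tested genes within 250 kb, 1 was called lower, against 11.8% of all genes tested, and none was called higher, against 9.91%. *Tmem169*, 4.32 kb upstream on the same strand, had 21.7, 17.9 and 122 normalized counts in the controls and 2.12, 4.90 and 0 in the *MxCDX2* mice, a log2 fold change of -4.50 (adjusted p = 0.0375 in edgeR's test). The wild-type control held most of its signal. *Pecr*, 23.1 kb upstream, had a log2 fold change of -0.47 (adjusted p = 0.195), and *Mreg*, 95.1 kb upstream, of -1.33 (adjusted p = 0.137). *Smarcal1*, the nearest tested protein-coding gene downstream at 188 kb, had 2078 normalized counts in controls and 2234 in *MxCDX2* mice (log2 fold change 0.10, adjusted p = 0.618). *Gm15843* (log2 fold change 0.16, adjusted p = 0.802) and *D230017M19Rik* (-0.42, adjusted p = 0.433) were not called either.

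The genes whose log2 normalized counts were most alike to *Xrcc5* over the 6 mice, out of 11981 whose mean reached 100 normalized counts, were *Slc48a1*, *Marcks*, *Klk1*, *Mthfd1* and *Sh3glb1*. Pearson's r was 0.999 for *Slc48a1* and 0.998 for *Sh3glb1*. All 5 were lower in *MxCDX2* mice, with log2 fold changes between -2.79 (*Klk1*) and -0.62 (*Sh3glb1*). With 2 groups this likeness is set mostly by the difference between them, and it is given as a description.

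The marrow of the groups differed in its cells, and fewer cells of a type and less RNA per cell cannot be told apart in these bulk samples. Beside the marker counts below, 11.8% of all genes tested were called lower, 9.91% were called higher and 36.1% had an unadjusted p below 0.05. All 10 erythroid markers were called lower in *MxCDX2* mice (median log2 fold change -3.78), and their summed normalized count was between 1845087 and 2199886 in controls and between 52405 and 205809 in *MxCDX2* mice. Of 10 B lymphoid markers 5 were called, all lower, with a median of -1.76 and sums of 48239 to 135667 against 38968 to 43689. *Ighm* made up most of the *MxCDX2* sums, with 29384, 34499 and 31559 normalized counts in mice 1, 2 and 3. It overlapped between groups and was not called (adjusted p = 0.176 in edgeR's test), whereas in the other 9 markers the *MxCDX2* mice lay wholly below the controls. Of 8 monocyte markers 5 were called, all higher, with a median of 1.62 and sums of 248483 to 364590 against 551648 to 647002. Neutrophil markers were called lower in 4 of 9, with a median of -1.18 and sums of 1819221 to 2982947 against 882746 to 1175463. The list was not uniform: the *MxCDX2* mice lay wholly below the controls in 6 of the 9 and wholly above them in 1. That 1 was *Prtn3* (log2 fold change 0.78, adjusted p = 0.288 in edgeR's test). *Mpo* (0.31) and *Elane* (-0.31) overlapped between groups. Of 10 markers of cycling cells 5 were called lower, with a median of -0.43 and sums of 158087 to 234957 against 129638 to 161869. No listed marker was at 0 in a whole group, and reads of every marker list were counted in all 6 mice. Such reads alone do not show which cells they came from. T lymphoid markers, with sums of 2388 to 4178 against 1385 to 2631, were not called by edgeR in any of 6 genes (1 had an unadjusted p below 0.05, and DESeq2 and limma voom called 1 each). Of 5 megakaryocyte markers 2 were called lower by edgeR, 1 by DESeq2 and 0 by limma voom, with a median of -3.31. The sums were 16315, 14567 and 145858 in the *RsCDX2*, *Mx1Cre* and wild-type controls and 7445 to 9511 in *MxCDX2* mice, so the wild-type control weighs heavily in that median. Among the *MxCDX2* mice, mouse 2 had the lowest erythroid and B lymphoid sums, the lowest *Xrcc5* and the highest *Dclre1c*, but mouse 1 had the highest erythroid sum and mouse 3 the highest *Xrcc5*. Among the controls the wild-type mouse had the highest *Xrcc5*, the lowest B lymphoid, monocyte, neutrophil and cycling sums, and the highest T lymphoid and megakaryocyte sums. It was the lowest control in 8 of the 10 members, *Lig4* and *Polm* among them, and in *Rag1* and *Rag2*. The part of these cell populations in the changes of the end joining genes was not tested.

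**Figure D5:**
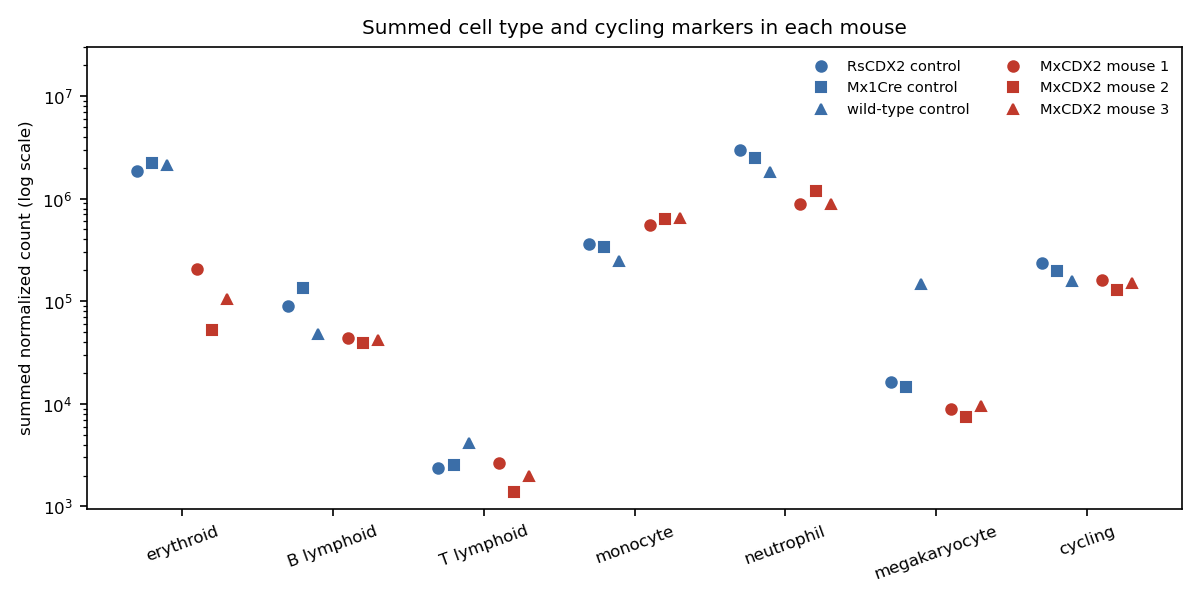
Summed normalized count (vertical axis, log scale) of 6 lists of cell type markers and 1 list of cycling markers in each control mouse (blue) and *MxCDX2* mouse (red). Erythroid sums are at least 1845087 in every control and at most 205809 in every *MxCDX2* mouse, and the megakaryocyte sum of the wild-type control, 145858, stands apart from the other 5 mice.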

How the data were processed

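The authors sequenced stranded mRNA libraries, used STAR (version 2.5) for alignment to GRCm38 and obtained gene counts from HTSeq (version 0.6.1), per the labels and the methods. They deposited raw read counts for each mouse, without normalization. Rows that name no gene (reads on no feature, 9.22% to 14.1% of the reads in the files, and ambiguous reads, 2.99% to 3.16%) were left out. Groups came from the sample labels. Symbols, positions and exon lengths came from GENCODE M21 (GRCm38), which matched 37607 of the 39179 identifiers.

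Tests used edgeR 4.0.16 under R 4.3.3 (TMM, default filterByExpr, glmQLFit and glmQLFTest), with Benjamini-Hochberg adjustment over the 15980 genes tested. Standard errors came from the F statistic and 95% intervals from the t distribution on the degrees of freedom of the fit. Ratios added 0.5 to each count and were compared by exact permutation tests. Promoters came from RefSeq windows. Python 3.11.15 with scipy 1.17.1, numpy 2.4.6, pandas 2.3.3 and matplotlib 3.10.9 served for the rest. The fits were tested on simulated data.

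The members and lists were chosen with earlier results of these data known. Named were all members, up to 3 called genes per direction from each list, tested genes within 250 kb of a member past both thresholds, and the 5 genes most alike to the member with the lowest p. Alternatives were DESeq2 1.42.0, limma 3.58.1 (voom), other scalings and filters, and each mouse left out. No 2 mice of a group had counts close enough to be the same library (chi-square per degree of freedom of at least 63.9).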

Additional observations from a re-analysis of the deposited data

How the results depend on the processing

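*Xrcc5* was called, and alone passed both thresholds, under all 13 alternatives run, with log2 fold changes between -2.26 and -1.93. The count of members called was 2 or 3 under the 7 other tools, scalings and filters, and between 1 and 3 when each mouse was left out. Without the wild-type control the called members were *Xrcc5*, *Xrcc6* and *Lig4*, all lower, and without any other mouse only *Xrcc5* was called. *Xrcc6* was also called with at least 10 counts required in every mouse (adjusted p = 0.0491), and *Poll* with total counts as the scale (adjusted p = 0.0349). Total counts raised the median log2 fold change of all genes by 0.12, and turned the 1888 lower and 1583 higher calls into 1657 and 2343, so values on that scale are shifted upward. *Polm* changed sign there (0.062), with limma voom (0.081) and without the *Mx1Cre* control (0.33), and ranged from -0.38 to 0.33 with a mouse left out. *Prkdc* changed sign without *MxCDX2* mouse 1 (-0.0060) and ranged up to 0.20. The called genes numbered 3471 in all, 4599 with DESeq2, and between 1482 and 4361 with a mouse left out. The count was lower by over 1.5 times without *MxCDX2* mouse 2 (2052) or mouse 3 (1482). For the partner lists, total counts gave 1 called gene in break sensing, 2 among the 53BP1 effectors and 2 among the accessory factors, where DESeq2 gave 3 and limma voom 2. DESeq2 called 1 of the 53BP1 effectors, and a filter of at least 10 counts in every mouse let 1 gene of alternative end joining pass. Leaving out each mouse gave 0 to 1 called gene in break sensing, 0 to 4 among the 53BP1 effectors, 0 to 3 among the accessory factors, 0 to 1 in the V(D)J recombinase, 0 to 2 in alternative end joining, 1 to 4 in homologous recombination and 0 to 1 among the telomere factors. Where these counts moved, the cause was not tested. The differences in log2 ratio ranged with a mouse left out from -1.75 to -1.26 for *Xrcc5* to *Xrcc6*, 0.63 to 1.32 for *Xrcc4* to *Lig4* and -0.83 to -0.05 for *Polm* to *Poll*. No paired analysis was possible because the labels number only the *MxCDX2* mice, and the controls carry no number that ties them to those mice. Each member had at least 117 normalized counts in each mouse, and counting error is largest for *Xrcc5*, *Nhej1* and *Xrcc4*, the members with the fewest reads.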

Other observations

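The highest Ensembl gene number in the count files was 99334, and that of GENCODE M21 was 118393, so that genes numbered later have no value here. Of the listed partner genes, *Shld3* was the 1 that was not matched. The share of reads on no feature was 14.1% in *MxCDX2* mouse 2, the mouse with the lowest *Xrcc5* and the highest *Dclre1c*, and between 9.22% and 11.3% in the other mice.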
